A study of Mus musculus with 4 samples.

Results

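Cycling cells are the small fraction of a tissue that is passing through division. In the lungs of aged male mice a droplet barcode was taken as a cycling cell when at least 3 of 5 genes of cell division (Mki67, Top2a, Ube2c, Birc5 and Cdk1) had at least 1 unique molecular identifier (UMI, 1 counted RNA molecule). The same UMI counts thus chose the members and are described, not tested. Of 68675 barcodes kept after filtering, 342 were members, with 98 and 96 in BPTES replicates 1 and 2 and 57 and 91 in DMSO replicates 1 and 2. BPTES is a small-molecule inhibitor of glutaminase, and DMSO is its vehicle. The C57BL/6 males were 19 months old when dosing started and were dosed for 1 month; both groups share the strain, sex, age and sort. Lung suspensions digested for 1 hour were stained for CD45, the surface protein of blood-derived cells, and each library combined 20000 sorted cells lacking it with 9000 carrying it, so that shares below are shares of this mixture and not of the lung. The labels do not say how many mice a library came from or whether the 2 libraries of a group came from separate mice, and p-values then measure only the spread between these libraries.

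A dividing cell copies its DNA in S phase and parts the copies in mitosis, after a gap called G2. Genes for copying DNA, such as the Mcm helicase subunits and the ribonucleotide reductase subunit Rrm2, are switched on by E2F factors at the start of S phase. Genes for mitosis, such as the cyclin Ccnb1 and the anaphase activator Cdc20, follow in G2 and are known to be held down in resting cells and turned on in G2 through paired promoter letters, the CHR element and CCAAT boxes. Glutamine supplies nitrogen for the purine and pyrimidine bases that a cell in S phase needs, and glutaminase turns glutamine into glutamate.

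The 5 genes of the rule have distinct roles. Mki67 encodes Ki-67, which coats mitotic chromosomes, Top2a a topoisomerase that untangles DNA, Ube2c the ubiquitin enzyme of the anaphase-promoting complex, Birc5 survivin of the chromosomal passenger complex, and Cdk1 the kinase that drives mitosis. Promoters of 5 genes are printed to show these letters where they are present and where they are not: Ube2c, Cdk1 and Birc5 of the rule, and Cdc20 and Ccnb1, mitotic genes the rule did not use. Each line holds the 150 bases before the annotated start on the gene's own strand, from RefSeq on GRCm38.p6, with TTTGAA (CHR) and CCAAT in capitals on either strand, so that TTCAAA and ATTGG mark the other strand. The stretches lie upstream of the first exon, at chr2:164769779-164769928 (plus strand) for Ube2c, chr10:69352913-69353062 (minus) for Cdk1, chr11:117849087-117849236 (plus) for Birc5, chr4:118437344-118437493 (minus) for Cdc20 and chr13:100786487-100786636 (minus) for Ccnb1.
Ube2c: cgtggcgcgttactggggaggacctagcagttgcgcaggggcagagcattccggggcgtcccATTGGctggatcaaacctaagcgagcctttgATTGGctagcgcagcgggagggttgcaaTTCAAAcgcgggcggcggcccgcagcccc
Cdk1: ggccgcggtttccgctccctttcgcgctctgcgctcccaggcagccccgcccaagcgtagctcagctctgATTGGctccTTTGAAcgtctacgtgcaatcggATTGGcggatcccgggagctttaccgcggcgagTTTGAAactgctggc
Birc5: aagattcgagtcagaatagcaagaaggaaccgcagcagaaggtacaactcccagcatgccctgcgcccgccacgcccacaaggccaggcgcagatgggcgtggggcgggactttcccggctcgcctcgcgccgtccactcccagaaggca
Cdc20: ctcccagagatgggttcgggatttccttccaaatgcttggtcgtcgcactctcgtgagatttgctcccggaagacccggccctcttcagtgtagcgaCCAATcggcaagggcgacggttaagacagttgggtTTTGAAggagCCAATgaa
Ccnb1: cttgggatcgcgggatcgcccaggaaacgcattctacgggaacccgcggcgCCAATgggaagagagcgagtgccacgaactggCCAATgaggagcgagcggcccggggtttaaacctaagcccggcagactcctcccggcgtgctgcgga

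Ube2c, Cdk1 and Cdc20 hold both sets of letters, Ccnb1 holds CCAAT with no TTTGAA in this stretch, and Birc5 holds neither. The other rule genes, Mki67 and Top2a, hold both. Over the 52 promoter windows of the mitotic list and the 5 rule genes (48 genes matched), 15 (28.8%) held both, against 737 of 32851 windows of the same length in the whole table (2.24%). CCAAT alone was in 78.8% of the 52 windows, in 55.3% of the 38 windows of S phase genes and in 24.5% of all windows. A match is a description of letters and not a bound site.

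The rule separated a deep group of barcodes. Members had a median of 42219.5 UMIs, against 14920 over all kept barcodes, and the library medians of members ran from 37160 to 45556. Libraries held between 260346570 and 342107092 UMIs, and 91.0% to 93.5% of barcodes were kept. At the edge of the rule, 646 barcodes had exactly 2 of the 5 genes, with a median of 3 UMIs of them in all, and 124 had exactly 3, with a median of 10; the 140 barcodes with all 5 had a median of 183. In 2 cell types that are known not to divide when mature, 5 of 2991 neutrophil barcodes (0.167%) and 0 of 509 ciliated barcodes met the rule, which allows a share of up to 0.589% in ciliated ones. DMSO replicate 2 held 4 of the 5, and a neutrophil barcode there had 104 UMIs of Mki67. Neutrophil barcodes were shallower than members, with library medians of 9694 to 10835 UMIs, and ciliated ones had 28631.5 to 36718, so neither gives the background at the members' depth. No cycling barcode sequence was shared between libraries, where pairs of libraries shared 65 to 104 kept barcode sequences. Of the 342 members, 49 (14.3%) held markers of lineages that do not go together, against 4.13% to 5.66% of other kept barcodes, and no doublet caller was run.

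Of the 30 genes standing highest in cycling over other barcodes, 18 were on the fixed cell cycle lists, the 5 rule genes among them. Outside those lists, Pclaf, the PCNA clamp-associated factor, had a mean of 288 CPM (a gene's UMIs over all UMIs, scaled to a fixed total) in cycling and 0.383 in other barcodes. The replication-linked histone gene Hist1h3c had 172 against 0.0943, and Cep55, a gene of the final cut between daughter cells, 78.2 against 0.423. These genes are given as a description, since the members were chosen on partner genes in the same cells.

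Lineage was read from each barcode's own marker UMIs, taking the marker with the most among Cd3e (T cells), Cd79a (B cells), Ncr1 (natural killer cells), Ccr2 (a chemokine receptor of monocytes and relatives), Cdh5 (endothelium), Col1a2 (fibroblasts) and Sftpc at 50 or more UMIs (alveolar type 2 cells). Ccr2 took 128 members (37.4%), Cd3e 68 (19.9%), Cdh5 61 (17.8%) and Cd79a 34 (9.94%). Ncr1 took 10, Col1a2 7 and Sftpc 3, while 28 had no marker and 3 were tied.

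Measured against all kept barcodes of the same lineage, the Ccr2-assigned barcodes held the largest cycling share, 2.29% (128 of 5598). The share was 1.93% (68 of 3529) for Cd3e, 1.79% (10 of 559) for Ncr1 and 0.704% (34 of 4829) for Cd79a. Structural cells stood lowest, at 0.231% (61 of 26424) for Cdh5, 0.218% (3 of 1375) for Sftpc and 0.0388% (7 of 18058) for Col1a2. The first 3 overlap from library to library and have no order beyond that spread. Depth was not matched in these shares. With each barcode thinned at random to 5000 UMIs, the mean shares with BPTES and DMSO were 0.904% and 0.646% for Ccr2. They were 1.26% and 1.25% for Cd3e and 2.35% and 0.712% for Ncr1, so that Ccr2 did not lead at that depth.

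**Figure D1:**
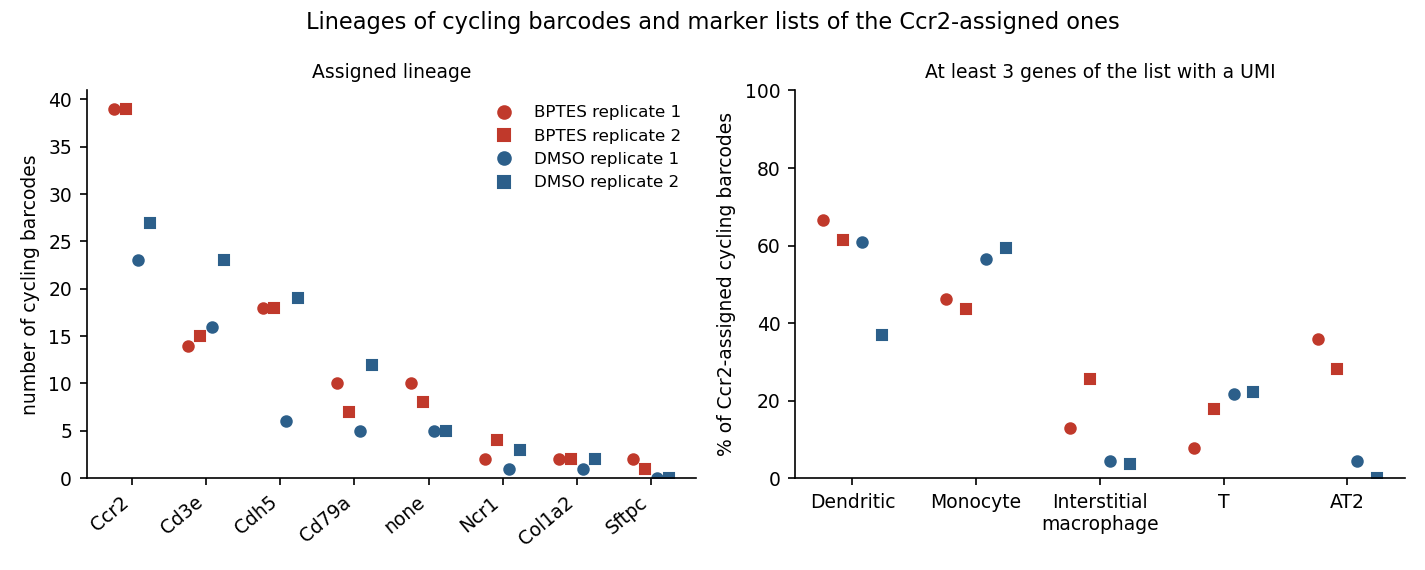
Left, number of cycling barcodes of each assigned lineage in each library. Right, percent of Ccr2-assigned cycling barcodes with a UMI of at least 3 genes of a marker list. Ccr2 leads every library on the left, with 23 to 39 barcodes; on the right, the interstitial macrophage list is higher in both BPTES libraries and the monocyte list in both DMSO libraries.

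The Ccr2 label covered more than monocytes. A list of 5 dendritic genes (Flt3, Xcr1, Clec9a, Cd209a and Zbtb46) had at least 3 members with a UMI in 74 of the 128 barcodes (57.8%), against 10.6% of the other Ccr2-assigned barcodes. The monocyte list was held by 64 (50.0%), against 67.9% of the others. Flt3, the growth factor receptor of dendritic precursors, had a UMI in 83, Xcr1 and Clec9a of cross-presenting dendritic cells in 50 and 57, and Csf1r, the receptor of monocytes and macrophages, in 94. A T list was held by 21. These barcodes are therefore called Ccr2-assigned and not monocytes.

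The other labels were checked against the same lists. Among the Cd3e-assigned barcodes all 68 held the T list, 39 had a UMI of Cd8a, 27 of Cd4 and 8 of Foxp3, the factor of regulatory T cells. Of 34 Cd79a-assigned barcodes 31 held the B list (4 of 7 in BPTES replicate 2) and 16 the plasma cell list, while 15 (44.1%) held the monocyte list, against 8.99% of other Cd79a-assigned barcodes. Holding a list depends on depth, which was not matched here: Cd79a-assigned members had a median of 58815.5 UMIs and Ccr2-assigned ones 46877.5, against 14920 over all kept barcodes. All 3 Sftpc-assigned barcodes had UMIs of Ptprc and Cd3e, and 0 were left without barcodes holding markers of several lineages. All 10 Ncr1-assigned barcodes held the natural killer list. Of 61 Cdh5-assigned barcodes 55 held the endothelial list and 54 a capillary list, and 23 had a UMI of Ptprc, which encodes CD45. Among the 28 with no lineage marker, 10 held the dendritic list, 7 the monocyte list and 6 the alveolar macrophage list.

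The first comparison asked whether more cells were cycling with BPTES. Members made up 0.605% (98 of 16191, exact 95% binomial interval 0.492 to 0.737) and 0.579% (96 of 16586, 0.469 to 0.706) of kept barcodes in the BPTES libraries. In the DMSO libraries they made up 0.371% (57 of 15349, 0.281 to 0.481) and 0.443% (91 of 20549, 0.357 to 0.543). Both BPTES libraries lay above both DMSO libraries, with means of 0.592% and 0.407%, a ratio of 1.45. The two-sided exact permutation test over libraries gave p = 0.333, which is the smallest it can give with 2 libraries against 2, so the difference cannot pass a threshold of 0.05 in this design. Intervals cover counting error only. The lineage mix of the kept barcodes, out of the totals above, differed too. Ccr2-assigned ones were 1359 and 1667 with BPTES and 1089 and 1483 with DMSO. Cd79a-assigned ones, with a lower cycling share, were 809 and 718 against 1485 and 1817. The part of this mix in the ratio was not tested.

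Depth moved with the group: the median UMI count of cycling barcodes was 44446 and 45556 in the BPTES libraries, against 38797 and 37160 in the DMSO libraries. With each barcode thinned to 5000 UMIs, and 8523 shallower kept barcodes left out, the shares were 0.323% and 0.279% with BPTES and 0.172% and 0.275% with DMSO, a ratio of means of 1.35. At this matched depth BPTES replicate 2 and DMSO replicate 2 were nearly level, and DMSO replicate 1 was the low library. Without thinning the ratio ran from 1.34 to 1.59 when any library was left out.

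**Figure D2:**
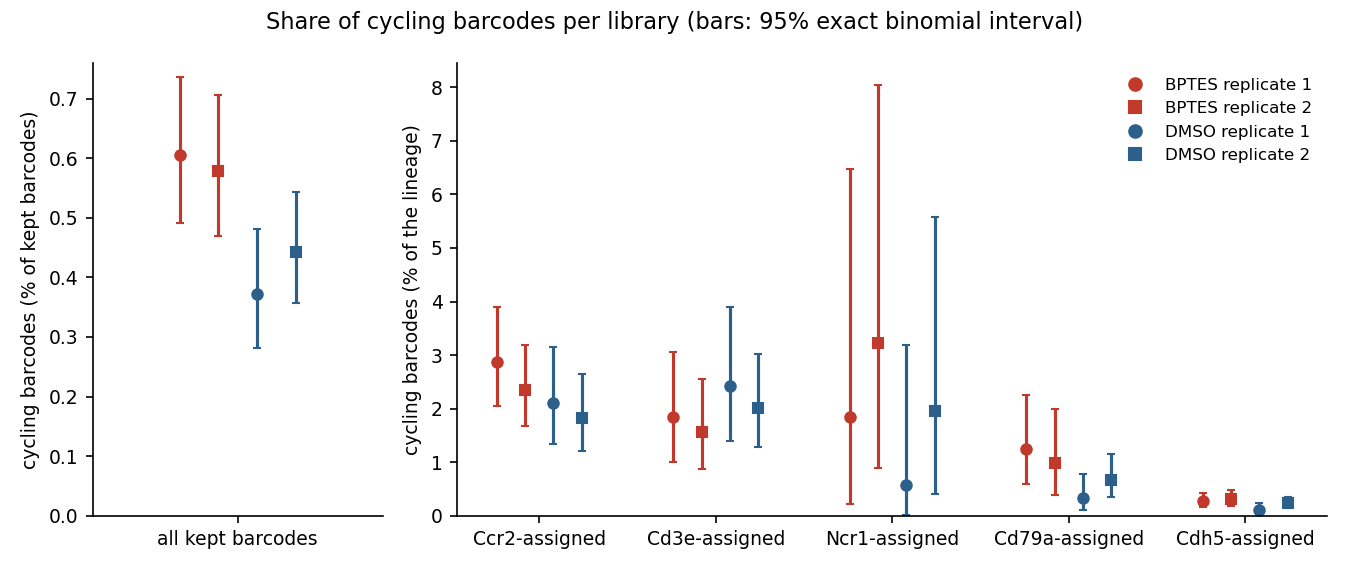
Cycling barcodes as percent of all kept barcodes (left) and of the kept barcodes of each assigned lineage (right), 1 point per library, with exact 95% binomial intervals as bars. Both BPTES libraries lie above both DMSO libraries on the left (0.605% and 0.579% against 0.371% and 0.443%); Cd3e-assigned barcodes on the right have the opposite order.

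Within lineages, the numbers of cycling barcodes were tested with edgeR (quasi-likelihood), which called 0 of 5 lineages at an adjusted p under 0.05 (0% called), with Cd79a alone at an unadjusted p under 0.05. Cd79a-assigned barcodes were cycling at 1.24% and 0.975% with BPTES and 0.337% and 0.660% with DMSO. The groups did not overlap; the log2 ratio of BPTES over DMSO was 1.10 (SE 0.45, adjusted p = 0.167). It rests on 17 cycling B-lineage barcodes in each group, out of far fewer kept Cd79a-assigned barcodes with BPTES (809 and 718) than with DMSO (1485 and 1817). Of the 17 in each group, 14 with BPTES but 8 with DMSO were left when barcodes of several lineages were taken out. Without barcodes holding markers of several lineages the log2 ratio was 1.84 (adjusted p = 0.0124), and without DMSO replicate 2 it was 1.69 (adjusted p = 0.0397). It was 0.74 without DMSO replicate 1 (adjusted p = 0.405), 0.65 where 2 of the 5 rule genes sufficed (adjusted p = 0.684), 0.91 without BPTES replicate 1 (adjusted p = 0.459) and 1.26 when thinned (adjusted p = 0.329).

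Endothelial cells cycled rarely. The Cdh5-assigned share was 0.269% and 0.304% with BPTES and 0.110% and 0.228% with DMSO (log2 ratio 0.65, SE 0.33, adjusted p = 0.194). DMSO replicate 1, with 6 such barcodes against 18 to 19 in the other libraries, was the low one. With barcodes thinned to 5000 UMIs the log2 ratio was 0.11 (adjusted p = 0.932), and without DMSO replicate 1 it was 0.32 (adjusted p = 0.641). Without DMSO replicate 2 it was 1.36 (adjusted p = 0.0397), and with lineage given by the first marker in a fixed order 1.08 (adjusted p = 0.0422).

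Ccr2-assigned barcodes were cycling at 2.87% and 2.34% with BPTES and 2.11% and 1.82% with DMSO (log2 ratio 0.41, SE 0.23, adjusted p = 0.194). T-lineage barcodes went the other way, at 1.83% and 1.56% against 2.42% and 2.02% (log2 ratio -0.36, SE 0.32, adjusted p = 0.298). Thinned to 5000 UMIs the T-lineage shares overlapped, at 1.02% and 1.501% against 0.967% and 1.54% (log2 ratio -0.041). Where 2 of the 5 rule genes sufficed the log2 ratio was 0.0048 for Cd3e and -0.076 for Ccr2. In the main setting the 2 groups did not overlap in either lineage, by margins inside the binomial intervals. For Ncr1 the shares were 1.83% and 3.23% against 0.581% and 1.95%, on 1 to 4 cells per library (log2 ratio 1.02, SE 0.79, adjusted p = 0.298).

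The make-up of the cycling pool is given beside these shares. T-lineage cells were 14.3% and 15.6% of members with BPTES and 28.1% and 25.3% with DMSO. Thinned, these were 13.04% and 26.8% against 21.7% and 26.5%, and where 2 rule genes sufficed 15.1% and 15.7% against 15.4% and 20%, with overlap in both. Among the T-lineage members of the main setting, Cd8a had a UMI in 5 of 14 and 7 of 15 barcodes with BPTES and in 10 of 16 and 17 of 23 with DMSO. Any gene difference in the pooled cycling cells is read beside this mix.

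The next comparison asked where in the cycle the cells stood, from the summed UMIs of a list of 43 S phase genes over those of 54 G2/M genes, with the rule genes left out. The ratio was 0.573 and 0.556 with BPTES and 0.383 and 0.477 with DMSO. Both BPTES libraries were higher, by 0.40 on the log2 scale, with an exact permutation p = 0.333, again the smallest possible. The log2 difference was 0.24 without DMSO replicate 1 and 0.56 without DMSO replicate 2. The G2/M list took 0.602% and 0.583% of cycling UMIs with BPTES and 0.704% and 0.846% with DMSO, and its groups did not overlap. The S list took 0.345% and 0.325% against 0.270% and 0.404%, and there they did.

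The lineages did not all share this order. Ccr2-assigned cells had S to G2/M ratios of 0.471 and 0.632 with BPTES and 0.218 and 0.390 with DMSO. Cd3e-assigned cells had 0.674 and 0.624 against 0.395 and 0.506. Cdh5-assigned cells had 0.442 and 0.384 against 0.540 and 0.488, the reverse. Cd79a-assigned cells had 1.14 and 0.575 against 0.501 and 0.505, on 5 to 12 cells per library. Taken by itself, the G2/M list had separate groups in Ccr2-assigned cells, at 0.492% and 0.399% of UMIs against 0.559% and 0.582%. It overlapped in Cd3e-assigned cells (0.749% and 1.16% against 1.10% and 1.34%) and in Cdh5-assigned cells (0.982% and 0.992% against 1.13% and 0.894%). In Cd79a-assigned cells it overlapped too, at 0.410% and 0.554% against 0.538% and 0.622%. The difference between lineages was not tested.

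**Figure D3:**
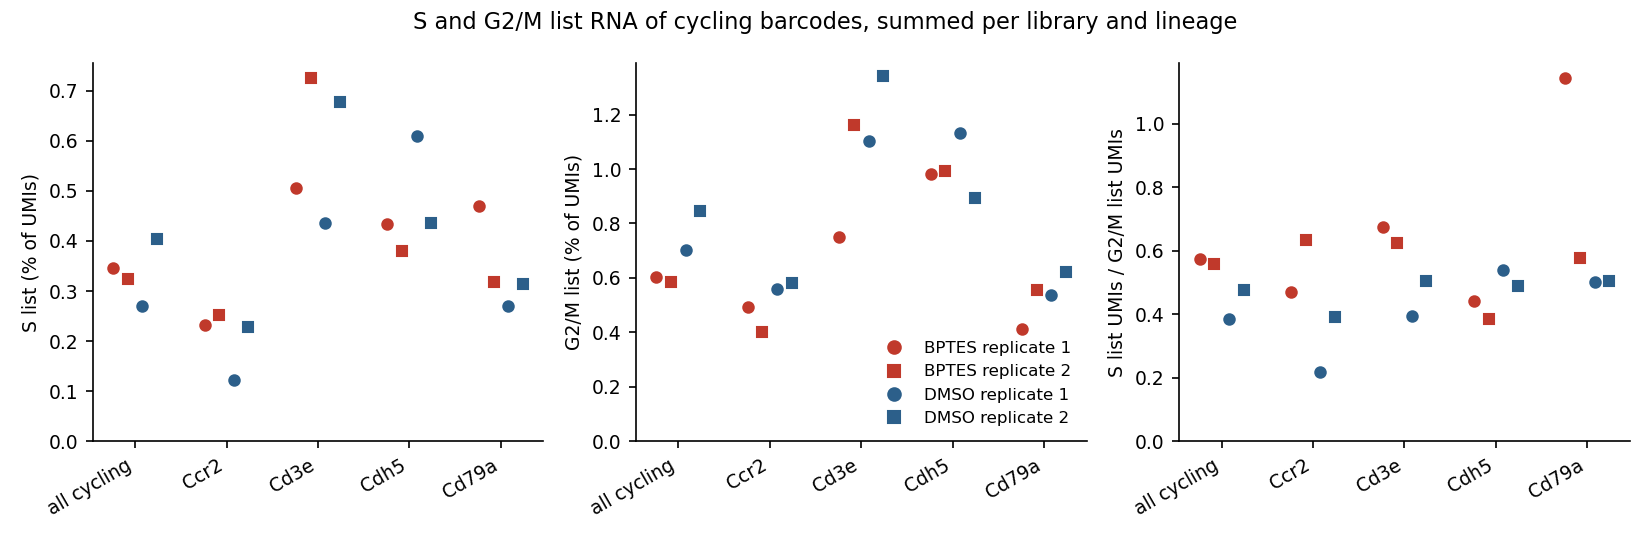
Summed RNA of the S list (left) and the G2/M list (middle) as percent of the UMIs of cycling barcodes, and their ratio (right), 1 point per library and lineage. For all cycling barcodes the ratio is 0.573 and 0.556 with BPTES and 0.383 and 0.477 with DMSO; Cdh5-assigned barcodes have the opposite order.

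Gene levels were then compared over the pooled cycling cells, as CPM of summed counts scaled by TMM library sizes. At an adjusted p under 0.05 edgeR's quasi-likelihood test called 0 of 12160 genes (0%), with 1193 at an unadjusted p under 0.05 and a smallest adjusted p of 0.146. DESeq2 called 137 (1.13%), 92 higher and 45 lower with BPTES.

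The mitotic genes Ccnb1 and Cdc20 had separate groups. Ccnb1, the cyclin that partners Cdk1 at entry to mitosis, was at 32.5 and 28.3 CPM with BPTES and 65.1 and 61.3 with DMSO. Both BPTES libraries lay at about the same low level, well clear of DMSO (log2 fold change -1.06, SE 0.15, adjusted p = 0.188). Cdc20, whose promoter with its CHR and CCAAT letters is printed above, was at 42.2 and 37.5 CPM against 71.1 and 69.7 (log2 fold change -0.82, SE 0.14, adjusted p = 0.201). Neither gene passed the test over all genes.

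Of the 54 G2/M genes, 47 had a negative log2 fold change, with a list median of -0.27, where the median over all genes was near 0. An unadjusted p under 0.05 in the lower direction was reached by 12 of them, against 4.12% of all genes, and 31 had both BPTES libraries below both DMSO libraries, against 20.5% of all genes. Chosen after their values were seen, further examples are the centromere genes Cenpa (130 and 136 against 233 and 214 CPM) and Cenpf (198 and 187 against 281 and 304 CPM). T-lineage cells had more G2/M RNA (0.749% to 1.34% of UMIs) than Ccr2-assigned cells (0.399% to 0.582%), and the part of this mix in the list's values was not tested. Within Cd3e-, Cdh5- and Cd79a-assigned cells the summed list overlapped between the groups, as given above.

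The 5 rule genes are given as levels only, since the rule used them. Ube2c was at 152 and 153 CPM with BPTES and 233 and 272 with DMSO, and Birc5 at 163 and 161 against 210 and 216. The groups did not overlap for either. Mki67 was at 858 and 859 CPM against 895 and 949, Top2a at 707 and 670 against 670 and 784, and Cdk1 at 99.6 and 92.0 against 88.0 and 109. Split by lineage and without TMM scaling, Ube2c was at 238 and 286 CPM against 438 and 488 in Cd3e-assigned cells and at 219 and 239 against 163 and 182 in Cdh5-assigned cells.

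S phase genes had 6 of 43 members with separate groups in the pooled cells, 4 higher and 2 lower, against 21.1% and 20.5% of all genes. Of the 43, 30 had a positive log2 fold change and 0 reached an unadjusted p under 0.05 in either direction, with a list median of 0.048. Pcna, the sliding clamp of DNA polymerase, was at 187 and 196 CPM with BPTES and 152 and 211 with DMSO. The helicase subunit Mcm2 was at 44.8 and 43.2 against 35.1 and 52.3, Mcm5 at 87.2 and 69.9 against 61.2 and 96.8, and thymidylate synthase Tyms at 93.8 and 85.9 against 63.2 and 95.1. Rrm2 was at 130 and 116 against 91.6 and 120. In each of these 5 genes DMSO replicate 1 was the lowest library.

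Cyclins and their regulators gave no common direction: 13 of 27 were positive and 14 negative, and 5 reached an unadjusted p under 0.05, all lower, against 4.12% of all genes. Ccna2, the cyclin of S and G2, was at 83.2 and 82.4 CPM against 101 and 102 (log2 fold change -0.30, SE 0.11, adjusted p = 0.503). Ccnd1, which carries growth signals in G1, was at 207 and 131 against 111 and 119 (0.56, SE 0.23, adjusted p = 0.525). Ccnd2 and Ccnd3 had log2 fold changes of -0.011 and 0.29, the S phase cyclin Ccne1 -0.0040, and the regulators E2f1, Myc and Foxm1 0.20, -0.22 and 0.12.

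Among genes that stop the cycle, Cdkn1a and Cdkn2a overlapped between the groups and Cdkn1b did not. Cdkn1a, the p21 inhibitor that p53 turns on, was at 302 and 337 CPM with BPTES and 320 and 283 with DMSO (log2 fold change 0.085, SE 0.13). Cdkn2a, the p16 gene of senescence, was at 13.2 and 9.20 against 9.08 and 16.2. Cdkn1b, the p27 inhibitor, was at 103 and 112 against 126 and 118 (log2 fold change -0.18, SE 0.12, edgeR adjusted p = 0.698). Of 15 tested members of the list of inhibitors and p53 targets, 10 were positive, with 1 at an unadjusted p under 0.05 in each direction, against 5.69% of all genes higher and 4.12% lower. In Ccr2-assigned cycling cells, which are part of the pooled cells, Cdkn1b was at 106 and 101 CPM against 127 and 162 (-0.48, SE 0.18, edgeR adjusted p = 0.411). The groups were separate there too. Separate groups with BPTES lower were found for 20.5% of all genes in the pooled cells and 20.3% in the Ccr2-assigned ones.

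Among genes of glutamine use and nucleotide synthesis none passed the test. Glul, which makes glutamine, was at 51.9 and 69.0 CPM with BPTES and 43.4 and 67.7 with DMSO, and the glutamine carrier Slc1a5 at 65.8 and 61.1 against 61.2 and 79.2. Cad, the first enzyme of pyrimidine synthesis, was at 14.8 and 15.1 against 10.3 and 10.3 (log2 fold change 0.54, SE 0.23, adjusted p = 0.535), and Ctps and Asns had log2 fold changes of 0.067 and 0.48 with SEs of 0.30 and 0.75. Of 27 tested genes 0 reached an unadjusted p under 0.05, against 5.69% of all genes higher and 4.12% lower, and the list took 0.206% and 0.200% of cycling UMIs against 0.214% and 0.211%.

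Interferon-induced genes were lower with BPTES in nearly the whole list without passing the test. Of 20 genes 19 were negative, with a list median of -0.78, 9 reached an unadjusted p under 0.05 and 16 had separate groups, all lower, against 4.12% and 20.5% of all genes. Rsad2, an antiviral enzyme, was at 1.99 and 3.29 CPM with BPTES and 12.6 and 16.2 with DMSO, and was chosen after its values were seen. Cdh5-assigned cycling cells held the widest gap, with 0.0933% and 0.115% of UMIs from the list against 0.279% (6 barcodes in DMSO replicate 1) and 0.250%. In the other Cdh5-assigned barcodes these were 0.199% and 0.152% against 0.219% and 0.217%, lower with BPTES as well. In Ccr2-assigned cycling cells they were 0.0395% and 0.0388% against 0.0537% and 0.0420%. There 8 of 12 tested genes of the list were negative. An unadjusted p under 0.05 was reached by 1 gene in each direction, against 6.1% of all genes higher and 4.5% lower. Separate groups were found in 4 lower and 1 higher, against 20.3% and 22% of all genes.

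**Figure D4:**
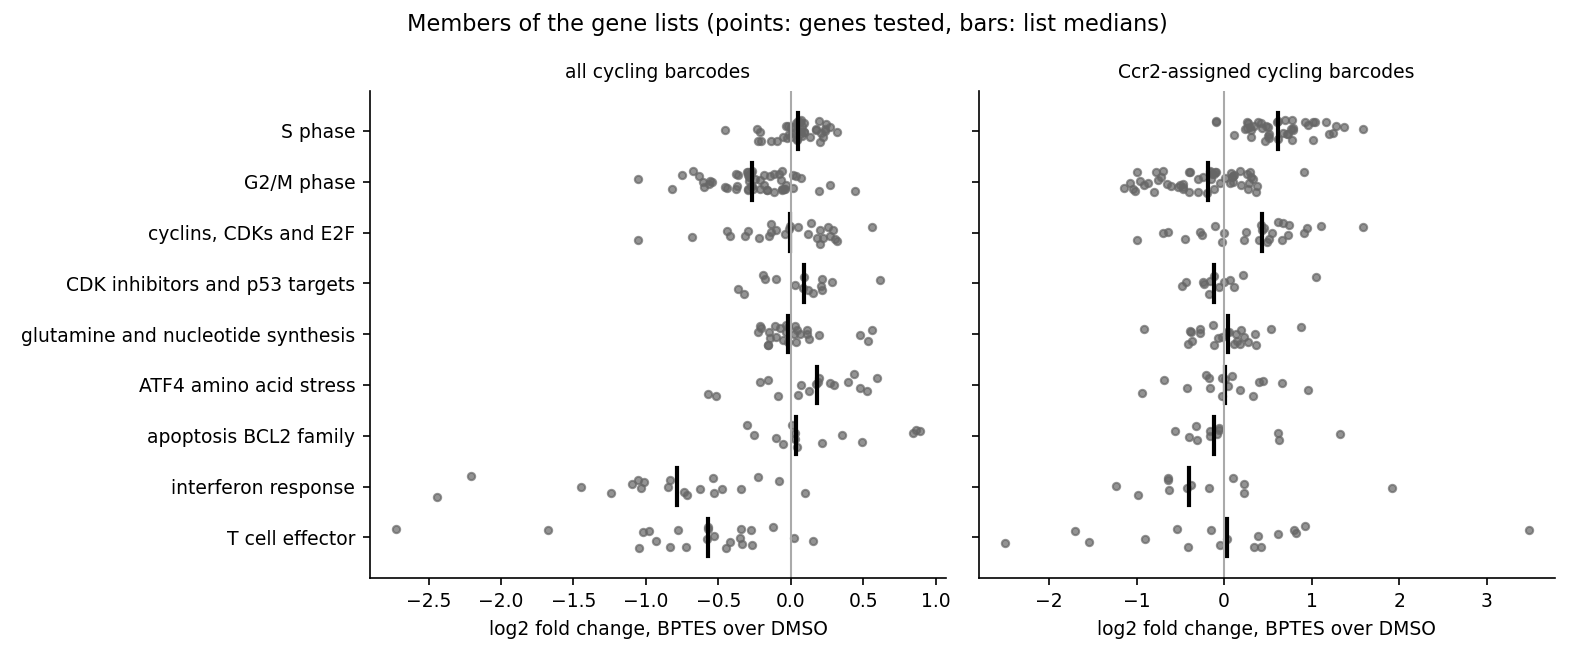
Log2 fold change of BPTES over DMSO for each tested gene of 9 lists (points, spread vertically only to keep them apart) with the list median as a bar, in all cycling barcodes (left) and in Ccr2-assigned ones (right). G2/M and interferon genes lie mostly below 0 on the left (medians -0.27 and -0.78), and S phase genes mostly above 0 on the right (median 0.61).

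Further lists are given beside the mix of cells. T cell effector genes were negative in 21 of 23 (list median -0.57), 5 of them at an unadjusted p under 0.05, among them Tox and Gzmk, against 4.12% of all genes. Summed RNA of the T marker list moved alongside, at 0.0450% and 0.0522% of cycling UMIs with BPTES and 0.102% and 0.133% with DMSO, and within Cd3e-assigned cycling cells the effector list overlapped, at 0.546% and 0.726% against 0.634% and 0.966%. Stress genes under ATF4 were positive in 13 of 18, where 6064 of all 12160 genes were, but had separate groups in 5 higher and 5 lower, against 21.1% and 20.5% of all genes, and 1 gene, lower, at an unadjusted p under 0.05, against 4.12%. BCL2 family genes were positive in 10 of 14, with 2 higher and 0 lower at that p, against 5.69% and 4.12% of all genes. Bcl2l1, an inhibitor of cell death named after its values were seen, was at 77.3 and 94.6 CPM against 55.3 and 39.4.

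Genes of smallest p in the pooled cells, 5 per direction with a mean of at least 20 CPM, are given as values that did not pass. On the higher side were the complement subunits C1qa (284 and 238 against 50.5 and 62.9 CPM) and C1qb (277 and 273 against 55.7 and 73.6), both of the interstitial macrophage list, with Ms4a7, Igf1 and Il12b. On the lower side were the T cell receptor complex chains Cd3d (72.2 and 77.1 against 164 and 171) and Cd3g, the lymphocyte adaptor Sh2d1a, Gm8369 and the monocyte gene F13a1. Adjusted p ran from 0.146 to 0.187, so none passed. In DMSO replicates 1 and 2, 2 cells held 99.2% and 75.6% of the C1qa UMIs, and 3 and 6 cells had any.

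Ccr2 was the only lineage with at least 20 cycling barcodes in every library, and its genes were compared on their own. The counts were 39 and 39 barcodes with BPTES and 23 and 27 with DMSO. edgeR's quasi-likelihood test called 0 of 9598 genes (0%), with 1017 at an unadjusted p under 0.05 and a smallest adjusted p of 0.0539, and DESeq2 called 87 (0.906%). The count was 227 where 2 of the 5 genes sufficed for membership.

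Within these cells 41 of 43 S phase genes had a positive log2 fold change, none of them called, with a list median of 0.61, where the median over all genes was near 0. An unadjusted p under 0.05 in the higher direction was reached by 9, against 6.1% of all genes, and 25 had separate groups, against 22% of all genes. Mcm2 was at 30.8 and 40.6 CPM with BPTES and 11.1 and 24.6 with DMSO (log2 fold change 1.01, SE 0.39, adjusted p = 0.438). Rrm2 was at 80.7 and 60.5 against 29.0 and 45.6 (0.92, SE 0.28, adjusted p = 0.341). Pcna was at 154 and 168 against 70.7 and 132, and Ccne1, at 12.1 and 16.4 against 5.11 and 8.21, had separate groups as well. Mcm5 overlapped, at 64.0 and 60.1 against 29.8 and 71.1. Mcm5, Tyms and E2f1 had log2 fold changes of 0.30, 0.69 and 0.66. DMSO replicate 1 was the lowest library for each of these genes: Mcm2, Rrm2, Pcna, Ccne1, Mcm5, Tyms and E2f1. The summed S list was 0.231% and 0.253% of UMIs with BPTES and 0.122% and 0.227% with DMSO, so that DMSO replicate 2 lay close to the BPTES libraries.

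The G2/M list lay more often lower than higher with BPTES in the same cells. Of 54 G2/M genes 36 were negative (median -0.18), 12 of them at an unadjusted p under 0.05, against 4.5% of all genes. The other 18 were positive, 1 of them at that p, against 6.1% of all genes. Separate groups were found in 25 lower and 7 higher, against 20.3% and 22% of all genes. Ccnb1 was at 33.3 and 21.2 CPM against 57.1 and 51.1 (log2 fold change -0.996, SE 0.28, adjusted p = 0.299) and Cdc20 at 44.4 and 24.6 against 77.5 and 66.6 (-1.07, SE 0.31, adjusted p = 0.306). Of the rule genes, given as levels only, Top2a was at 468 and 457 CPM against 314 and 317 and Cdk1 at 75.1 and 71.7 against 49.4 and 55.6, both higher with BPTES with separate groups. Ube2c was at 146 and 115 CPM against 187 and 197, lower with BPTES. Foxm1, the factor of G2 genes, had a log2 fold change of 0.0017 (SE 0.36). Of 24 tested glutamine and nucleotide genes 13 were positive, with a median of 0.042.

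The dendritic and monocyte parts of these barcodes differed between libraries. The dendritic list was held by 66.7% and 61.5% with BPTES and 60.9% and 37.0% with DMSO, and the monocyte list by 46.2% and 43.6% against 56.5% and 59.3%. The summed monocyte list was 0.289% and 0.496% of UMIs with BPTES and 0.536% and 0.622% with DMSO. The interstitial macrophage list was held by 5 and 10 of 39 barcodes with BPTES and by 1 each of 23 and 27 with DMSO, at 0.0746% and 0.0996% of UMIs against 0.0288% and 0.0132%. Every gene of the monocyte and dendritic lists had UMIs in each library, while 2 of 5 interstitial macrophage genes were at 0 in BPTES replicate 1 and 1 in DMSO replicate 1. The part of these lists in the gene values was not tested.

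Genes of smallest p in Ccr2-assigned cycling cells are given as values that did not pass. On the lower side, Vcan, a matrix proteoglycan of classical monocytes, was at 13.6 and 15.1 CPM with BPTES and 79.2 and 73.9 with DMSO, Plac8 at 141 and 191 against 885 and 592, and Ly6c2, a surface mark of classical monocytes, at 60.5 and 81.2 against 445 and 255. On the higher side, Cd63 was at 141 and 234 against 21.3 and 12.8 and Rnf180 at 183 and 169 against 58.8 and 41.9. The macrophage elastase Mmp12 was at 949 and 362 against 16.2 and 13.7, but 2 cells held 84.2% and 94.0% of its UMIs in the BPTES libraries. Igf1, a growth factor of macrophages, was counted 96 and 141 times in the BPTES libraries and 1 and 2 times in the DMSO libraries, a ratio of 39.9 with an exact 95% interval of 13.5 to 195 for counting error only. In the BPTES libraries 2 cells held 82.3% and 63.1% of the Igf1 UMIs and 96.3% and 62.9% of the Vcan UMIs. Without the 2 richest cells of each library Igf1 and Mmp12 had 0 UMIs left in both DMSO libraries, so that no fold is given (edgeR adjusted p = 0.236 and 0.418). The log2 fold change of Vcan was -2.81 (adjusted p = 0.306, from -2.40 with all cells). For Cd63 it was 4.43 (adjusted p = 0.0530), and for Ifitm6 -2.23 (adjusted p = 0.0428). Vcan had only 27 UMIs in BPTES replicate 1 before those cells were left out. For Cd63 the 2 richest cells held 88.0% and 57.1% of only 25 and 14 UMIs in the DMSO libraries. Few UMIs were thus left, and the larger folds of Vcan and Cd63 in this setting are not read as stronger results.

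The last comparison asked which differences set cycling cells apart from the other Ccr2-assigned cells, by testing the difference of the BPTES effect between them with library as a term. edgeR called 5 of 14894 genes (0.0336%), 2 with a higher effect in cycling cells (0.0134%) and 3 with a lower one (0.0201%), and DESeq2 called 70 (0.47%). S phase genes were positive in 41 of 43 on this measure (median 0.55, 3 at an unadjusted p under 0.05 against 3.43% of all genes). It uses the same sums of cycling cells as the comparison above, so this count is not a second, separate result.

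F13a1 (ENSMUSG00000039109), the coagulation factor XIII subunit made by monocytes, was at 50.9 and 62.8 CPM in cycling cells with BPTES and 206 and 261 with DMSO. In the other Ccr2-assigned cells it was at 422 and 499 CPM against 467 and 482, with overlap. The effect in cycling cells was lower by 1.99 on the log2 scale (difference -1.99, SE 0.16, adjusted p = 0.0239). F13a1 had a UMI in 6 and 9 cycling barcodes with BPTES and 8 and 8 with DMSO, of which 2 held 62.1%, 70.9%, 60.0% and 70.1% of its UMIs. Without the 2 richest cells of each library the difference was -2.15 (adjusted p = 0.00763). Where 4 of the 5 rule genes were required it was -2.22 (adjusted p = 0.0893). F13a1 belongs to the monocyte list, whose share differed as given above.

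Ifitm6 (ENSMUSG00000059108), an interferon-induced membrane gene of myeloid cells, was at 29.7 and 35.7 CPM in cycling cells with BPTES and 161 and 143 with DMSO. In the other cells it was at 362 and 319 CPM against 460 and 427, lower with BPTES in both as well. The difference of effects was -1.83 (SE 0.18, adjusted p = 0.0302). Where only barcodes with a single lineage marker were assigned it was -1.14 (adjusted p = 0.690).

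Scgb1a1 (ENSMUSG00000024653), the secretory protein of club cells in the airway, overlapped in cycling cells, at 58.8 and 49.7 CPM with BPTES and 21.4 and 57.4 with DMSO. The groups parted in the other Ccr2-assigned cells, at 571 and 291 CPM against 17.9 and 55.7, which gave a difference of effects of -3.04 (SE 0.29, adjusted p = 0.0293). The summed club list moved with it in those other cells, at 0.0584% and 0.0297% of UMIs against 0.00204% and 0.00574%. Its part in the result was not tested, and with the first lineage marker in a fixed order the difference was 0.10 (adjusted p = 1).

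Il12b (ENSMUSG00000004296), a subunit of the cytokines IL-12 and IL-23 made by dendritic cells, was at 147 and 262 CPM in cycling cells with BPTES and 0.823 and 4.48 with DMSO. In the other cells it was at 20.3 and 23.9 against 36.2 and 12.7. The difference of effects was 6.37 (SE 0.60, adjusted p = 0.0293). Few cells carried it: 4 and 6 barcodes with BPTES had any UMI, and 2 of them held 91.6% and 75.8%. Without the 2 richest cells of each library DMSO replicate 1 had 0 UMIs left and the difference did not pass (adjusted p = 0.321), and where 2 of the 5 rule genes sufficed it was -1.15 (adjusted p = 0.0265).

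Klra8 (ENSMUSG00000089727), a killer cell lectin-like receptor, was counted 72 and 83 times in BPTES cycling cells, all in 2 barcodes of each library, and 1 and 0 with DMSO. The ratio of the groups was 78.2 with an exact 95% interval of 13.8 to 3108 for counting error only. The other cells were at 12.0 and 12.9 CPM against 18.4 and 9.29. The fitted difference of effects was 6.53 (SE 0.66, adjusted p = 0.0302), and without those 2 barcodes per library no Klra8 UMI was left in the BPTES cycling cells. Without DMSO replicate 1 the DMSO cycling cells were at 0 UMIs of Klra8, so that the difference has no fold (adjusted p = 0.0547). It did not pass with 4 rule genes (adjusted p = 0.104), was 2.21 with 2 rule genes (adjusted p = 0.191) and -4.95 with the first lineage marker in a fixed order (SE 6.58, adjusted p = 1). Its family has near-identical copies, among which reads can be split. Gzma, a granzyme of killer cells, followed the same layout at 131 and 166 UMIs against 13 and 1, with 85.5% and 100% of the BPTES UMIs in 2 cells, and did not pass (adjusted p = 0.109). The natural killer list was held by 3 and 2 of these cycling barcodes with BPTES and by 1 and 0 with DMSO, and its part in both genes was not tested.

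**Figure D5:**
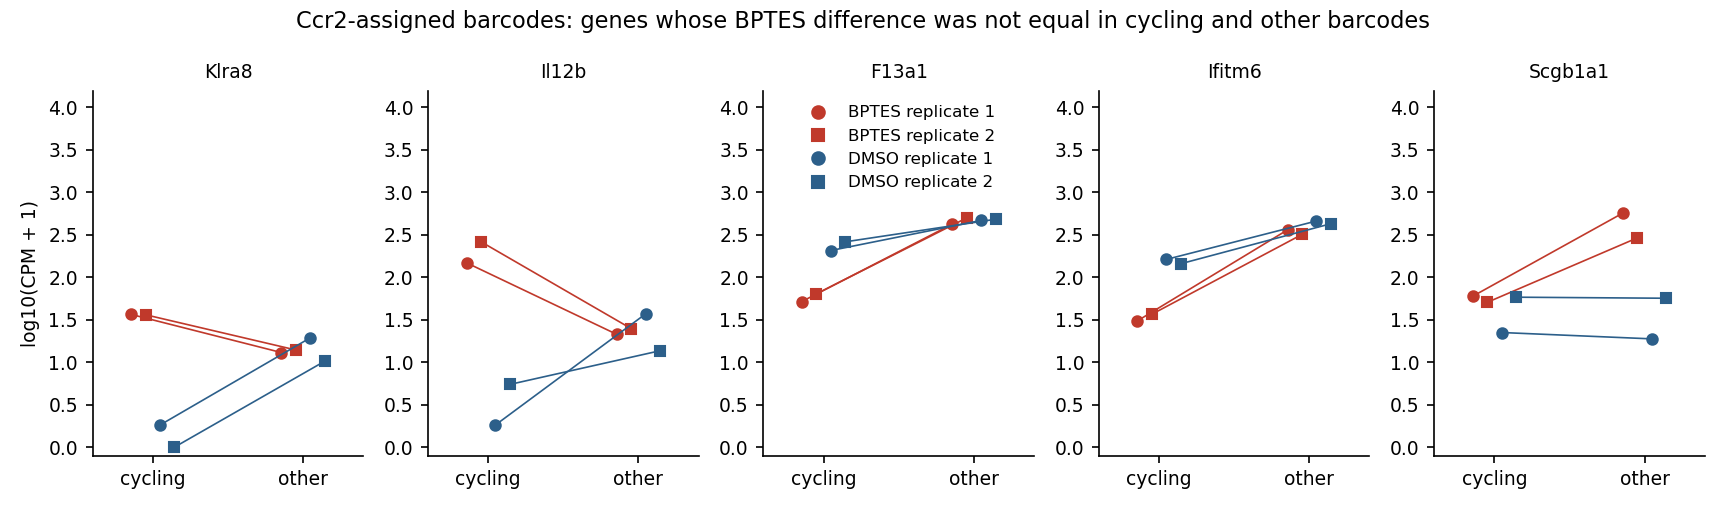
Level in log10(CPM + 1) of the 5 called genes in cycling (left of each panel) and other (right) Ccr2-assigned barcodes, 1 line per library. F13a1 and Ifitm6 lie lower with BPTES in cycling barcodes (50.9 and 62.8 against 206 and 261 CPM for F13a1), and Scgb1a1 parts in the other barcodes.

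Further genes of small p on this measure did not pass. The chemokine Cxcl2 was at 610 and 1065 CPM in cycling cells with BPTES and 214 and 160 with DMSO, while the other cells were at 571 and 639 against 549 and 612 (difference 2.06, SE 0.25, adjusted p = 0.0805). The calcium channel subunit Cacnb2 was at 119 and 78.6 against 25.5 and 24.2 in cycling cells, with 25.5 and 25.7 against 25.6 and 32.9 in the others (2.14, SE 0.30, adjusted p = 0.109). Lower in cycling cells were Xylt1, an enzyme that starts proteoglycan sugar chains (219 and 201 against 452 and 413), Setbp1 (28.2 and 17.4 against 49.4 and 106) and Zfyve9 (6.43 and 11.9 against 42.8 and 60.0). Without the 2 richest cells of each library Cacnb2 was at 3.78 (edgeR adjusted p = 0.0162) and Plac8 at -1.82 (adjusted p = 0.0200, from -1.64 and 0.103 with all cells), while Xylt1 was at -0.60 (adjusted p = 0.619). For Cacnb2 those 2 cells held 83.9% and 74.1% of only 31 and 27 UMIs in the DMSO libraries, against 37.3% and 25.4% with BPTES. Few DMSO UMIs of Cacnb2 were left, so its larger difference in this setting is not read as a stronger result.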

How the data were processed

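The 4 deposited matrices hold raw UMI counts per gene and barcode for 31054 features, made by the authors with Cell Ranger 8.0.1 and build mm10, per the submitters' processing notes. The filtered barcodes are as deposited. Barcodes with at least 500 genes, 1000 UMIs and at most 10% mitochondrial UMIs were kept, and members were chosen by the rule in the text. Lineage went to the marker with the most UMIs. That choice among 3 ways of assigning was settled with the numbers of cells under all 3 in view. The members, gene lists and marker lists were chosen with earlier results of these data known, and the class II, cDC and endothelial subtype lists after these counts were seen. No doublet caller was run. Barcodes with at least 2 UMIs of markers of incompatible lineages were left out as an alternative, and depth was matched by thinning to 5000 UMIs.

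Counts were summed per library, since cells are not replicates, and tested two-sided with edgeR 4.0.16 (TMM, filterByExpr, quasi-likelihood, Benjamini-Hochberg) in R 4.3.3. The CPM printed are of these sums. Cell numbers per lineage were tested with edgeR with the kept barcodes of the lineage as offset, for lineages with at least 10 cycling barcodes. DESeq2 1.42.0, RLE factors, no filter, other mitochondrial limits, 2 or 4 rule genes, a replicate block and leaving out each library were alternatives. A list counts as held where at least 3 of its genes have a UMI. Named genes are called genes with a mean of at least 10 CPM, up to 10 per direction, and called list members. The former also had to have groups without overlap, except for the difference of effects, where overlap was not checked. Where fewer than 10 were called, the 5 per direction of smallest p with a mean of at least 20 CPM were added. A fixed set of cycle and glutamine genes was named as well. On simulated counts for all cycling cells (12160 genes, 2 against 2), edgeR recovered 16.0% of 100 genes changed 2-fold and 89.0% of 100 changed 4-fold, with 7 false calls. For Ccr2-assigned cells (9598 genes) it recovered 26.0% and 95.0%, with 3 false calls. Whether these shares hold for the measured counts was not tested. There Igf1 was not called at a log2 fold change of 3.35 in all cycling cells (edgeR adjusted p = 0.146). Nor was it at 5.29 in Ccr2-assigned ones (edgeR adjusted p = 0.0539). Promoter sequences were read from RefSeq, GRCm38.p6. Some named genes are not reported here.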

Additional observations from a re-analysis of the deposited data

Results flagged for a closer look

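In Ccr2-assigned cells the BPTES effect differed between cycling and other barcodes for 5 genes, by edgeR's quasi-likelihood test of the difference itself. The log2 difference of effects was 6.53 for Klra8 (adjusted p = 0.0302) and 6.37 for Il12b (adjusted p = 0.0293). It was -3.04 for Scgb1a1 (adjusted p = 0.0293), -1.99 for F13a1 (adjusted p = 0.0239) and -1.83 for Ifitm6 (adjusted p = 0.0302). All Klra8 UMIs of the BPTES cycling cells were in 2 barcodes of each library, and 2 barcodes held 91.6% and 75.8% of the Il12b UMIs. Without the 2 richest cells of each library the Il12b difference did not pass (adjusted p = 0.321), with 0 UMIs left in DMSO replicate 1, and Klra8 had no UMI left in the BPTES cycling cells. In the same setting F13a1 was at -2.15 (adjusted p = 0.00763), Scgb1a1 at -3.20 (adjusted p = 0.0125) and Ifitm6 at -1.84 (adjusted p = 0.0332). Other settings ended or turned these: Ifitm6 was at -1.14 (adjusted p = 0.690) with a single lineage marker and at -1.58 (adjusted p = 0.304) with 4 rule genes, F13a1 at -2.22 (adjusted p = 0.0893) with 4 rule genes, and Scgb1a1 at 0.10 (adjusted p = 1) with the first marker in order. The 2 largest differences turned as well. Il12b was at -1.15 with 2 rule genes (edgeR adjusted p = 0.0265) and Klra8 at -4.95 (SE 6.58) with the first marker in order.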

How the results depend on the processing

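The higher cycling share and the higher S to G2/M ratio with BPTES kept their direction in all alternatives run, and their exact p could not go below 0.333. The count of called lineages, 0, was 1 without barcodes of several lineages (Cd79a) and 1 with the first marker in order (Cdh5), and 0 to 2 when a library was left out (2, Cd79a and Cdh5, without DMSO replicate 2). In all cycling cells the count of called genes, 0, was 4 with 4 rule genes, 137 with DESeq2 and 1 with the replicate block, and 0, 2, 5 and 11 without BPTES replicate 1, BPTES replicate 2, DMSO replicate 1 and DMSO replicate 2. In Ccr2-assigned cycling cells, also 0, it was 227 with 2 rule genes and 4 with 4, 5 at a mitochondrial limit of 20%, 13 without barcodes of several lineages, 87 with DESeq2, 647 without a filter on low counts and 25 with the replicate block. Leaving out these libraries in the same order gave 11, 5, 92 and 149. For the difference of effects, 5 called genes became 81 with 2 rule genes and 11 with 4, 16 without barcodes of several lineages, 70 with DESeq2, 369 without a filter and 130 with the replicate block, and 62, 183, 22 and 27 without each library in that order. The cause of these changes was not tested. With 4 rule genes Il12b, F13a1 and Ifitm6 kept their direction (4.73, -2.22 and -1.58) but no longer passed (adjusted p = 0.679, 0.0893 and 0.304), nor did Klra8 with 4 (adjusted p = 0.104) or 2 rule genes (adjusted p = 0.191). Among the lineage shares, the called genes and those of smallest p, values that reversed were the shares of Ccr2 (-0.076), Cd3e (0.0048) and Ncr1 (-0.052) with 2 rule genes, that of Ncr1 with a single lineage marker (-0.044), Il12b with 2 rule genes (-0.073 in Ccr2-assigned cells, -1.15 for the difference) and, with the first marker in order, the differences of Klra8 (-4.95), Gzma (-1.29) and Scgb1a1 (0.10). The genes of the fixed set had the other sign in 101 of 1000 values. Counting each gene in each comparison, 39 of 70 had it in at least 1 setting.

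The replicate number is shared between groups in the labels, with no word that it marks a shared mouse, day or batch, and the deviations of same-numbered libraries had a correlation of 0.179 over genes in all cycling cells and 0.0667 in Ccr2-assigned ones. With 2 libraries per group and 57 to 98 members per library, 2-fold changes were mostly not recovered in the simulated counts. Leaving out the 2 richest cells of genes that did not pass was chosen after seeing the data.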

Other observations

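Cycling B-lineage barcodes carried plasma cell genes in 16 of 34 cases. The plasma cell list was held by 8 of 10 and 2 of 7 Cd79a-assigned barcodes with BPTES and by 3 of 5 and 3 of 12 with DMSO. The regulatory T cell list was held by 22 of 68 cycling Cd3e-assigned barcodes and by 449 of 3461 other Cd3e-assigned barcodes. Holding a list depends on depth, which was not matched here. Among the 68, Foxp3 itself had a UMI in 8 and Cd8a in 39. The 22 were 6, 4, 7 and 5 in BPTES replicates 1 and 2 and DMSO replicates 1 and 2. These numbers were not tested between groups.

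The alveolar type 2 list was held by 14 and 11 Ccr2-assigned cycling barcodes with BPTES and by 1 and 0 with DMSO. Its summed level in the same cells was 0.0352% and 0.0247% of UMIs against 0.0419% and 0.0357%, so that the number of barcodes and the summed level had opposite orders. Its part in the results was not tested.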
